A study of Mus musculus with 8 samples.

Results

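Autophagy machinery genes were followed here in the testes of mice with and without a deletion in Tmem232, which encodes a membrane protein. The members were 50 genes taken by symbol: the ULK initiation complex, the PIK3C3 lipid kinase complexes, the lipid supply proteins, the conjugation enzymes, the ATG8 proteins, the cargo receptors, and the genes for fusion, lysosome and regulation. All 50 were found among the 19906 genes of the deposited table and all 50 passed the filter on low counts that left 15787 genes for testing. RNA was taken from the whole testis of 4 Tmem232-/- and 4 Tmem232+/+ mice, each 2 months old, with 1 library for each mouse. The Tmem232-/- mice came from CRISPR-Cas9 editing of C57BL/6 embryos and carry 1 described deletion in all tissues, so that an effect of the edited line and of the deletion cannot be told apart. No other allele or agent was named for either genotype.

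Macroautophagy encloses cytoplasm in a double membrane and delivers it to the lysosome. The ULK kinase complex starts the process, the PIK3C3 (VPS34) complex with Beclin 1 and ATG14 makes the phosphatidylinositol 3-phosphate on which the membrane forms, 2 conjugation systems attach ATG8 proteins such as LC3 to that membrane, and cargo receptors bind both the ATG8 proteins and the material to be removed. In the testis, spermatids discard most of their cytoplasm and organelles while they elongate, and germ cells that lack core autophagy genes form defective sperm. The study examined autophagy proteins by immunoblotting; the libraries described here measure transcripts and hold no information on autophagic flux.

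The 8 libraries were of similar depth, with 15428421 to 16350871 assigned read counts each. Levels in single libraries are given below as CPM, counts scaled to a library of 1000000 after scaling by the trimmed mean of M-values (TMM), and differences as log2 fold changes from edgeR's quasi-likelihood test, with p-values adjusted by the Benjamini-Hochberg method over all 15787 genes and called below 0.05. Tmem232 itself was measured at 148, 132, 123 and 122 CPM in the libraries labelled Tmem232-/- and at 111, 106, 108 and 110 CPM in those labelled Tmem232+/+. It was higher in the former (log2 fold change 0.27, SE 0.07, adjusted p = 0.0335 by edgeR), so the count of the whole gene does not bear out the labels. The deletion described in the paper removes part of the gene, and the paper reports that knockout testes lacked the protein. The table gives 1 count for each gene, so the deleted exons cannot be looked at alone. The libraries are called knockout-labelled and wild-type-labelled throughout. Markers of spermatids were higher in the knockout-labelled libraries: all 12 elongating spermatid genes rose, with a summed level of 3053 to 3992 CPM against 1703 to 1953, and 7 of 11 round spermatid genes rose, with 1579 to 1840 CPM against 1072 to 1288. The spermatogonial sum was lower, 252 to 283 CPM against 302 to 335, with 4 of 10 genes lower, and the summed levels of the spermatocyte, Sertoli, Leydig, myoid, macrophage, endothelial, epididymal and red blood cell lists overlapped between the genotypes, with 1 higher and 2 lower genes of 6 in the myoid list, 1 higher and 1 lower of the 11 tested spermatocyte genes, and no call in the others. In such bulk tissue a change in the number of cells of a type and a change in RNA per cell cannot be told apart. The spermatid sums moved in the same direction as Tmem232, and their part in its difference was not tested.

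The promoters of the 2 members that rose are shown with that of Lamp1, a lysosomal membrane gene whose promoter carries E-boxes, the CACGTG element bound by TFEB. Each sequence is the 250 bases before a RefSeq start site on GRCm38.p6, and capitals mark the letters CACGTG and TGACG on either strand, the latter being the first part of the cAMP response element TGACGTCA. The second Tax1bp1 sequence belongs to a start site further downstream. Both Tax1bp1 sequences lie inside the span given for the gene below, which starts at base 52713346. Nbr1 has a second start site as well, whose upstream bases run into an exon of the gene and are not shown; none of the 3 motifs stood in them.
Nbr1, chr11:101551857-101552106, plus strand: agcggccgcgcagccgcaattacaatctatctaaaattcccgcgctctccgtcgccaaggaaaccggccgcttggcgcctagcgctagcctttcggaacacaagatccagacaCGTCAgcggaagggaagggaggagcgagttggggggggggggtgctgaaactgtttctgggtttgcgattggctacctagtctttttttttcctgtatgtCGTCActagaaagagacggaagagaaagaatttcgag
Tax1bp1, chr6:52713479-52713728, plus strand: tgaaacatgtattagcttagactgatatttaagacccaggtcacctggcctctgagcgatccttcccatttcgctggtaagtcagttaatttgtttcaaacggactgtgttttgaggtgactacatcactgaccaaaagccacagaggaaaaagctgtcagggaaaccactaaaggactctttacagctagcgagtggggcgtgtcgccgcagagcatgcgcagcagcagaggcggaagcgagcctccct
Tax1bp1, chr6:52713915-52714164, plus strand: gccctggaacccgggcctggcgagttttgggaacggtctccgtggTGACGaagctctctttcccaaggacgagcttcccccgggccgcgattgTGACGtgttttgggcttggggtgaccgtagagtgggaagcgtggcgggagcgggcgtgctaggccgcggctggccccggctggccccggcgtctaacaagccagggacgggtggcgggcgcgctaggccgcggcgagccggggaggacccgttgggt
Lamp1, chr8:13158911-13159160, plus strand: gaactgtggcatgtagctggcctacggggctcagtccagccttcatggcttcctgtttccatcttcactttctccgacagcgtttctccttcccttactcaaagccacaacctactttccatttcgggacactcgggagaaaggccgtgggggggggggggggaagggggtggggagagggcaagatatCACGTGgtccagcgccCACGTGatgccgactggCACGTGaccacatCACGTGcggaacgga
The Lamp1 promoter held 4 E-boxes, starting 61, 45, 28 and 15 bases before the start site, and no E-box stood in the Nbr1 and Tax1bp1 sequences shown. Promoter windows of 300 bases, which add 50 bases after the start site, were at hand for 41 of the 50 members. CACGTG stood in 7 of them (17.1%, against 10.8% of the tested genes with a window), namely those of Atg14, Atg3, Atg5, Atg7, Lamp1, Nrbf2 and Rubcn. TGACGTCA stood in 2 (4.88%, against 3.22%), those of Atg16l2 and Atg5. The shorter TGACG, which the longer element contains, stood in 16 (39.0%, against 31.6%), those of Nbr1 and Tax1bp1 among them.

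The question put to the 50 genes was whether their transcripts differed between the genotypes. Nbr1 and Tax1bp1, which encode cargo receptors, were higher in the knockout-labelled testes, and Wdr45b, which encodes a WIPI protein that binds phosphatidylinositol 3-phosphate, was lower. The other 47 members did not pass the test. The 3 called members are 6.0% of the 50, against 11.8% of all tested genes, with 4.0% against 10.3% for higher calls and 2.0% against 1.46% for lower calls. The share called among the members was thus below that of the table as a whole for higher calls and near it for lower calls.

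The members' median log2 fold change was -0.05, as was the median over all tested genes, and 25 of the 50 lay below the latter. Absolute log2 fold changes stayed under 0.3 in 47 members (94.0%), against 78.0% of the tested genes, and for 44 members the 95% interval lay inside a 1.5-fold change in either direction. Without adjustment, 8 members had a p under 0.05 and were lower (16.0%, against 10.5% of the tested genes): Ulk1, Ambra1, Atg9b, Wdr45, Wdr45b, Atg16l1, Map1lc3b and Sqstm1. In the other direction there were 3 (6.0%, against 14.6%): Nbr1, Tax1bp1 and Gabarapl1. The genotypes did not overlap in 3 members that were higher, the same 3 genes (6.0%, against 11.8%), and in 6 that were lower, Ulk1, Uvrag, Ambra1, Atg9b, Wdr45b and Rab7 (12%, against 6.88%).

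**Figure D1:**
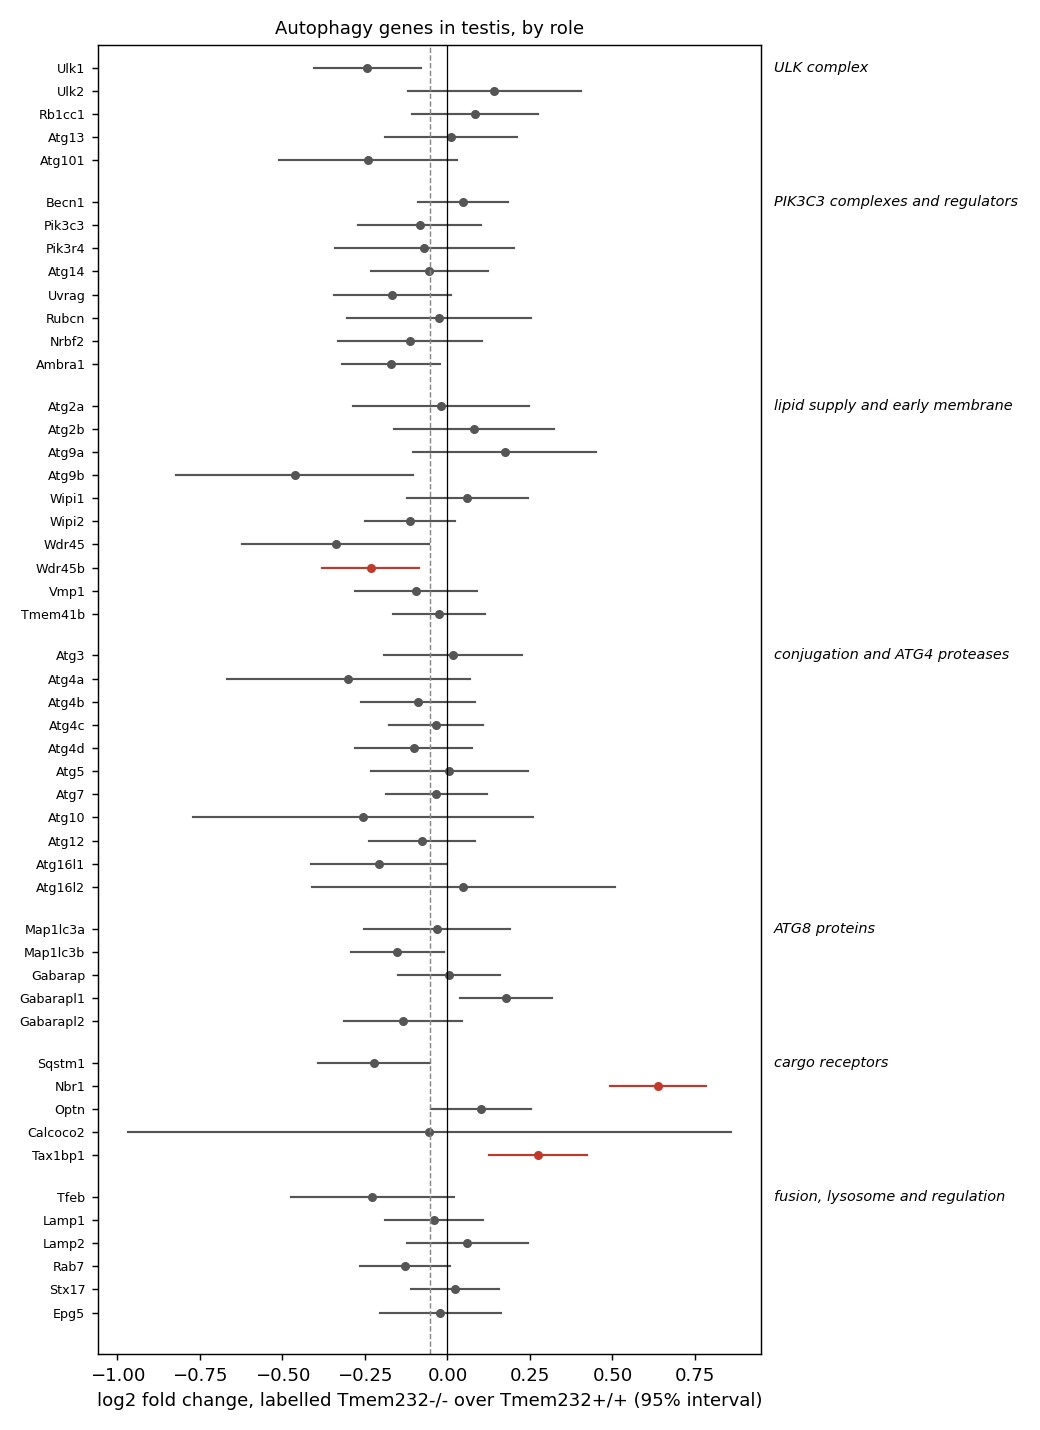
Log2 fold change (knockout-labelled over wild-type-labelled, x axis) of the 50 members by role, with points for the estimate and lines for its 95% interval; red marks an adjusted p under 0.05, the solid line is 0 and the dashed line the median of all tested genes. Nbr1 at 0.64 stands to the right of every other member, and Wdr45b at -0.23 is the one lower member past the test.

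Nbr1 encodes a receptor that binds ubiquitinated cargo and LC3 and works together with p62. It measured 230, 245, 218 and 209 CPM in the knockout-labelled libraries and 143, 145, 142 and 149 CPM in the wild-type-labelled ones. All 4 knockout-labelled libraries lay above every wild-type-labelled one. The means were 225 ± 15.4 and 145 ± 2.86 CPM (SD over 4 mice), so that Nbr1 was 1.56-fold higher (log2 fold change 0.64, SE 0.07, edgeR adjusted p = 7.26e-05), and 9.05% of the tested genes had a larger log2 fold change. The gene lies on chromosome 11 from 101552107 to 101581951 (GRCm38.p6), and no other gene overlaps it in GENCODE M21.

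Tax1bp1 encodes a receptor related to CALCOCO2 that binds ubiquitinated cargo and ATG8 proteins. It measured 397, 375, 365 and 341 CPM in the knockout-labelled libraries and 293, 317, 297 and 315 CPM in the wild-type-labelled ones. No library of either genotype fell in the range of the other, the nearest lying at 341 and 317 CPM. The means were 369 ± 23.1 and 306 ± 12.1 CPM (SD over 4 mice), and Tax1bp1 was 1.21-fold higher (log2 fold change 0.27, SE 0.07, edgeR adjusted p = 0.0204), and 15.8% of the tested genes had a larger log2 fold change. This call was lost without replicate 1 or 2 of the knockout-labelled libraries (adjusted p = 0.0676 and 0.0649) and without replicate 4 of the wild-type-labelled ones (0.0528). The gene lies on chromosome 6 from 52713346 to 52766780 and shares 160 exon bases with Gm43966, annotated on the opposite strand; the reads of the 2 genes cannot be told apart where the counting did not use strand, which was not stated.

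The spermatid marker sums given above moved in the same direction as Nbr1 and Tax1bp1, and their part in these 2 differences was not tested.

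The other 3 receptors did not pass the test. Sqstm1, which encodes p62, the receptor for ubiquitinated aggregates that is itself degraded by autophagy, measured 92.1, 92.0, 89.1 and 111 CPM in the knockout-labelled libraries and 114, 109, 109 and 116 CPM in the wild-type-labelled ones. Of the knockout-labelled libraries, 3 were below every wild-type-labelled one and replicate 4 was within their range. The log2 fold change was -0.22 (SE 0.08, edgeR adjusted p = 0.0967), and without that library it was -0.29 with an adjusted p of 0.00911, whereas leaving out any other library gave an adjusted p of 0.135 to 0.31. Sqstm1 shares 580 exon bases with Mrnip on the opposite strand. Optn, which encodes a receptor of damaged mitochondria and bacteria, had a log2 fold change of 0.10 (adjusted p = 0.394 by edgeR). Calcoco2 was at 0.251 to 0.932 CPM in the knockout-labelled libraries and 0.484 to 1.18 in the wild-type-labelled ones. Its 95% interval ran from -0.97 to 0.86, so that these data do not exclude a sizeable change in either direction.

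On the FPKM scale, which divides by transcript length and so allows genes to be compared, the receptors' summed level was shared out differently. Sqstm1 made up 24.1% ± 0.71 of it in the wild-type-labelled libraries and 18.5% ± 2.06 in the knockout-labelled ones, while Nbr1 made up 12.6% ± 0.28 and 17.4% ± 1.08 (SD, n = 4 each). Neither share overlapped between the genotypes. The shares are parts of 1 sum, so the higher Nbr1 level by itself lowers the share of Sqstm1. In FPKM, Sqstm1 did overlap, at 47.6 to 60.9 in the knockout-labelled libraries and 60.5 to 63.9 in the wild-type-labelled ones. Tax1bp1 held the greatest share in both, 38.0% ± 1.71 and 40.5% ± 1.61, and there the genotypes overlapped. These shares were computed after the members' values were seen and are given with no test.

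**Figure D2:**
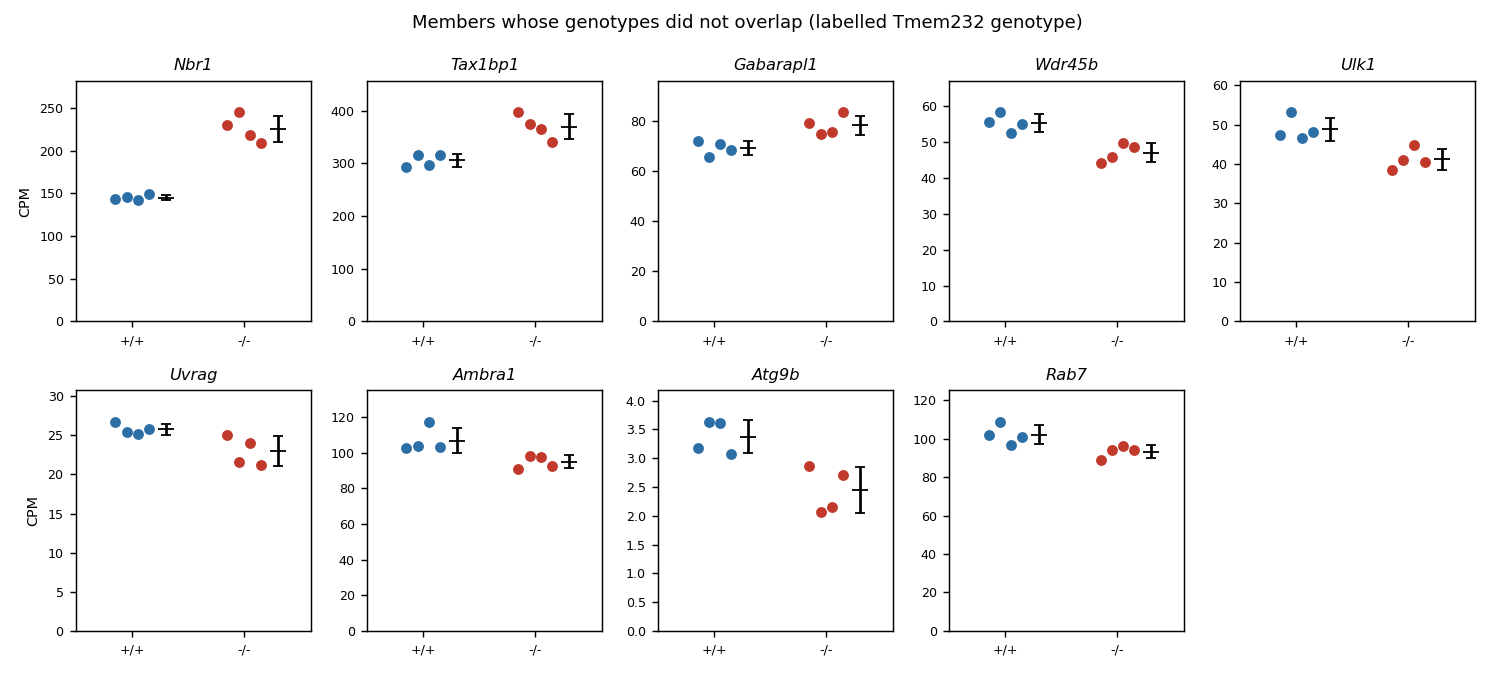
CPM (y axis, from 0) of the 9 members whose genotypes did not overlap, with 1 point for each library and the mean ± SD (n = 4) beside it, wild-type-labelled in blue and knockout-labelled in red. Nbr1 shows the widest separation, 209 to 245 CPM against 142 to 149, whereas in Uvrag and Rab7 the nearest libraries of the 2 genotypes almost meet.

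The ULK complex phosphorylates downstream autophagy proteins when nutrients are short. None of its 5 members passed the test. Ulk1, the kinase, measured 38.5, 41.1, 45.0 and 40.5 CPM in the knockout-labelled libraries and 47.4, 53.2, 46.6 and 48.1 CPM in the wild-type-labelled ones, without overlap. The log2 fold change was -0.24 (SE 0.07, edgeR adjusted p = 0.0566). That value fell just outside the threshold and crossed it in 4 of 18 alternative settings. Ulk2, its paralog, stood at 0.14 (SE 0.12, adjusted p = 0.49 by edgeR) and was the more abundant of the 2, at 37.5 ± 5.77 FPKM against 10.4 ± 0.70 in the wild-type-labelled libraries (SD, n = 4). The log2 ratio of Ulk1 to Ulk2 differed by -0.41 between the genotypes, with overlap (exact two-sided permutation test, p = 0.0571, and 0.114 after adjustment over the 8 pairs compared). Rb1cc1, the FIP200 scaffold, Atg13 and Atg101, the adaptor subunits, had log2 fold changes of 0.08, 0.01 and -0.24, with adjusted p-values from 0.252 to 0.954 by edgeR.

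The PIK3C3 complex I consists of PIK3C3, PIK3R4, Beclin 1 and ATG14, and these are the subunits that the study probed as proteins. Their transcripts did not pass the test. Becn1, the Beclin 1 gene, measured 148, 152, 159 and 149 CPM in the knockout-labelled libraries and 153, 147, 137 and 152 CPM in the wild-type-labelled ones (log2 fold change 0.05, SE 0.06, edgeR adjusted p = 0.679). The ranges overlapped between 148 and 153 CPM, and all 4 knockout-labelled libraries lay above the wild-type-labelled mean. Becn1 shares 3104 exon bases with Cntd1 on the opposite strand and its deposited counts were not whole numbers in all 8 libraries, so its value is uncertain.

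Pik3c3, the lipid kinase itself, measured 43.7, 46.8, 46.9 and 39.4 CPM in the knockout-labelled libraries and 48.5, 48.1, 41.0 and 49.8 CPM in the wild-type-labelled ones (log2 fold change -0.08, SE 0.08, edgeR adjusted p = 0.573). Pik3r4, its regulatory subunit, measured 34.1, 43.3, 47.2 and 37.0 CPM in the former and 47.2, 43.8, 33.8 and 44.8 CPM in the latter (-0.07, SE 0.12, edgeR adjusted p = 0.761). In both genes the libraries of a genotype differed among themselves by more than the genotypes did. Atg14, the subunit that directs the kinase to autophagy, measured 19.5, 19.96, 21.3 and 20.4 CPM in the knockout-labelled libraries and 22.1, 20.3, 19.4 and 22.4 CPM in the wild-type-labelled ones (-0.05, SE 0.08, edgeR adjusted p = 0.709). The 95% interval of the Atg14 difference ran from -0.23 to 0.12.

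Uvrag replaces ATG14 in complex II, which acts on endosomes. It measured 25.1, 21.7, 24.0 and 21.2 CPM in the knockout-labelled libraries and 26.7, 25.4, 25.1 and 25.9 CPM in the wild-type-labelled ones. The ranges were separate by a narrow margin, and the log2 fold change of -0.17 (SE 0.08) did not pass (edgeR adjusted p = 0.226). Uvrag shares 1589 exon bases with the antisense gene Gm45187. The log2 ratio of Atg14 to Uvrag, the subunits that set the 2 complexes apart, differed by 0.12 with overlap (exact two-sided permutation test, p = 0.171).

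Ambra1, a Beclin 1 regulator, measured 91.0, 98.0, 97.9 and 92.5 CPM in the knockout-labelled libraries and 103, 104, 117 and 103 CPM in the wild-type-labelled ones (log2 fold change -0.17, SE 0.07, edgeR adjusted p = 0.139). Both ranges were separate, and wild-type-labelled replicate 3 stood above the other 3 of its genotype; without it the log2 fold change was -0.09. Rubcn, the Rubicon inhibitor of complex II, and Nrbf2, a complex I subunit, had log2 fold changes of -0.03 and -0.11, the latter turning to 0.01 without wild-type-labelled replicate 1.

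**Figure D3:**
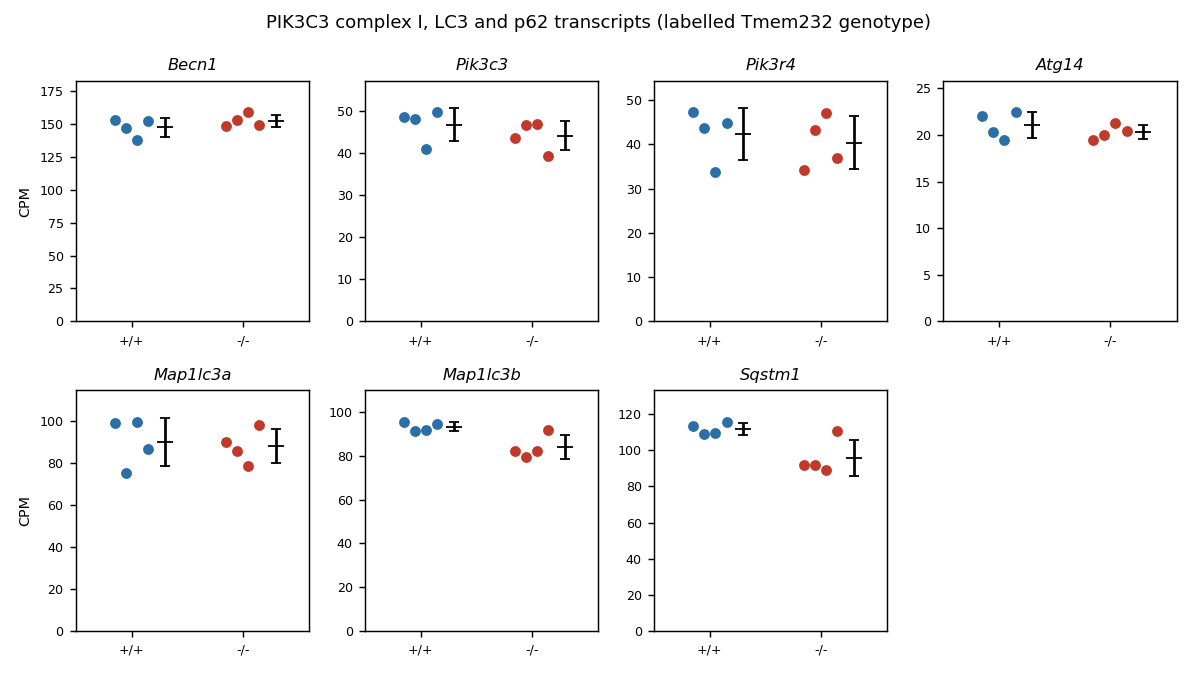
CPM (y axis, from 0) of the transcripts of PIK3C3 complex I, LC3 and p62, with 1 point for each library and the mean ± SD (n = 4), wild-type-labelled in blue and knockout-labelled in red. The genotypes overlap in all 7 genes; in Sqstm1 a single knockout-labelled library, at 111 CPM, reaches the wild-type-labelled range.

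Among the 10 genes of lipid supply and the early membrane, Wdr45b passed the test. It measured 44.3, 45.8, 49.9 and 48.6 CPM in the knockout-labelled libraries and 55.7, 58.3, 52.5 and 55.0 CPM in the wild-type-labelled ones. Every knockout-labelled library lay below every wild-type-labelled one. The means were 47.1 ± 2.57 and 55.4 ± 2.39 CPM (SD over 4 mice), with a log2 fold change of -0.23 (SE 0.07, edgeR adjusted p = 0.0444), and 12.9% of the tested genes had a lower value. The call was close to the threshold and was lost in 12 of 18 alternative settings, among them leaving out any one of the 8 libraries, where the adjusted p ranged from 0.0521 to 0.197. The spermatogonial marker sum given above was lower too, and its part in the Wdr45b difference was not tested. Wdr45b lies on chromosome 11 from 121327203 to 121354447. The deposited table places it on the strand opposite to the annotation, as it does for 10 of the 50 members, which bears on the counts only if they were made by strand.

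The related WIPI genes were Wdr45, with a log2 fold change of -0.34 (SE 0.13, edgeR adjusted p = 0.13), Wipi1 at 0.06 and Wipi2 at -0.11. Wdr45 shares 818 exon bases with Gm45208 on the same strand. Wipi2, which recruits ATG16L1, was the most abundant of the 4 at 37.3 ± 1.01 FPKM in the wild-type-labelled libraries (SD, n = 4). The log2 ratio of Wipi1 to Wipi2 was 0.17 higher in the knockout-labelled libraries and did not overlap (exact two-sided permutation test, p = 0.0286, the smallest that 4 against 4 can give, and 0.114 after adjustment over the 8 pairs). The nearest libraries almost met, at -1.784 in knockout-labelled replicate 1 and -1.785 in wild-type-labelled replicate 4.

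Atg9b, one of 2 genes for the lipid scramblase that seeds the membrane, had the most negative log2 fold change of the members, -0.46 (SE 0.16, edgeR adjusted p = 0.102). On the log2(FPKM + 1) scale, which understates the change of low genes, it stood at -0.22, and Ulk1 (-0.25), Wdr45b (-0.26) and Sqstm1 (-0.26) were among the members with more negative values. It measured 2.86, 2.07, 2.15 and 2.71 CPM in the knockout-labelled libraries and 3.18, 3.63, 3.61 and 3.07 CPM in the wild-type-labelled ones. The genotypes did not overlap, at a level far below that of Atg9a, which stood at 53.9 ± 7.40 FPKM against 0.92 ± 0.09 for Atg9b in the wild-type-labelled libraries (SD, n = 4). Atg9a itself was at 0.17 (SE 0.13, adjusted p = 0.422 by edgeR). Atg9b shares 294 exon bases with Nos3 on the opposite strand, and Atg9a shares 1832 with Gm29253 on the same strand. The lipid transfer genes Atg2a and Atg2b had log2 fold changes of -0.02 and 0.08, and the scramblase genes Vmp1 and Tmem41b, which supply lipid from the endoplasmic reticulum, -0.10 and -0.03.

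None of the 11 conjugation genes and ATG4 proteases passed the test, and their median log2 fold change was -0.08. Atg7 and Atg10, the E1 and an E2 enzyme, stood at -0.03 and -0.26, and Atg3, the E2 enzyme for ATG8 proteins, at 0.02. The conjugate that acts as their E3 is made of Atg12 (-0.08), Atg5 (0.01) and Atg16l1 (-0.21, SE 0.09, edgeR adjusted p = 0.197). Atg10 was low, at 1.97 ± 0.42 FPKM in the wild-type-labelled libraries (SD, n = 4), and its 95% interval of -0.77 to 0.26 was among the widest. The ATG4 proteases, which trim ATG8 proteins before and after lipidation, ranged from -0.30 (Atg4a) to -0.03 (Atg4c). Without wild-type-labelled replicate 1, Atg4a stood at -0.11 and Atg4b turned from -0.09 to 0.01. Atg4b, Atg4c and Atg4d made up 35.3%, 29.0% and 30.8% of their summed FPKM in the wild-type-labelled libraries. Atg4d shares 1405 exon bases with Kri1 on the opposite strand and its counts were not whole in all 8 libraries.

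The ATG8 proteins are the ubiquitin-like proteins that coat the membrane. Gabarap was the most abundant member of all, at 386 ± 23.0 FPKM in the wild-type-labelled libraries (SD, n = 4), and made up 59.4% ± 0.36 of the family's FPKM there and 60.2% ± 0.84 in the knockout-labelled ones. The shares of 3 smaller members did not overlap between the genotypes. Map1lc3b made up 9.47% in the wild-type-labelled and 8.57% in the knockout-labelled libraries, Gabarapl1 6.75% and 7.69%, and Gabarapl2 8.40% and 7.72%. The shares of a family depend on each other, and in CPM the genotypes overlapped in Map1lc3b and Gabarapl2. Among the ATG4, receptor and WIPI shares, those of Sqstm1, Nbr1 and Wipi1 did not overlap. Separation of shares was not measured over the tested genes, so it has no background here. The ATG8 shares, too, are given with no test. The log2 fold change of Gabarap was 0.00 (SE 0.07, adjusted p = 0.974 by edgeR). Map1lc3a, an LC3 gene, measured 89.9, 85.6, 78.4 and 98.1 CPM in the knockout-labelled libraries and 98.7, 75.0, 99.5 and 86.5 CPM in the wild-type-labelled ones (log2 fold change -0.03, SE 0.10, edgeR adjusted p = 0.871). The genotypes overlapped.

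Map1lc3b, whose product LC3B the study probed, measured 82.4, 79.7, 82.2 and 91.8 CPM in the knockout-labelled libraries and 95.5, 91.3, 92.0 and 94.5 CPM in the wild-type-labelled ones. Of the knockout-labelled libraries, 3 lay below the wild-type-labelled range and replicate 4 within it, as for Sqstm1. The log2 fold change was -0.15 (SE 0.06, edgeR adjusted p = 0.168).

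Gabarapl1 went the other way, at 79.1, 74.9, 75.8 and 83.5 CPM in the knockout-labelled libraries against 72.0, 65.7, 70.8 and 68.5 CPM. The genotypes did not overlap, and the log2 fold change was 0.18 (SE 0.06, edgeR adjusted p = 0.103). It shares 570 exon bases with 1700101I11Rik on the opposite strand. The log2 ratio of Gabarapl1 to Gabarap was 0.17 higher in the knockout-labelled libraries, without overlap (exact two-sided permutation test, p = 0.0286, and 0.114 after adjustment over the 8 pairs). Gabarapl2 stood at -0.14 (edgeR adjusted p = 0.33), and Map1lc3a over Map1lc3b differed by 0.13 with overlap.

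Fusion with the lysosome needs RAB7, the SNARE syntaxin 17 and the tether EPG5. Rab7 measured 88.7, 94.3, 96.1 and 94.0 CPM in the knockout-labelled libraries and 102, 109, 96.8 and 101 CPM in the wild-type-labelled ones (log2 fold change -0.13, SE 0.06, edgeR adjusted p = 0.227). Again the ranges were separate by little, the nearest libraries lying at 96.1 and 96.8 CPM. Stx17 and Epg5 had log2 fold changes of 0.02 and -0.02. Lamp1 and Lamp2, lysosomal membrane glycoproteins, stood at -0.04 and 0.06. Tfeb, which encodes the transcription factor for lysosomal and autophagy genes, stood at -0.23 (SE 0.11, edgeR adjusted p = 0.235).

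Levels per length were compared as FPKM. In the wild-type-labelled libraries the members' median was 22.5 FPKM against 8.89 FPKM over the tested genes, and 38 of the 50 lay above the latter. After Gabarap came Lamp1 (332 ± 14.7), Map1lc3a (104 ± 12.1), Tax1bp1 (97.3 ± 5.35), Rb1cc1 (93.6 ± 5.98) and Becn1 (80.2 ± 3.20 FPKM, SD, n = 4 each). At the low end stood Atg16l2 (0.74 ± 0.10) and Calcoco2 (0.43 ± 0.19), and 6 members were under 5 FPKM. Along the order, 35 of the 49 neighbouring pairs had libraries that overlapped, so the exact rank of most members is not fixed by these data. Nbr1 had 32.3 ± 1.08 FPKM in the wild-type-labelled and 48.6 ± 2.70 FPKM in the knockout-labelled libraries.

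**Figure D4:**
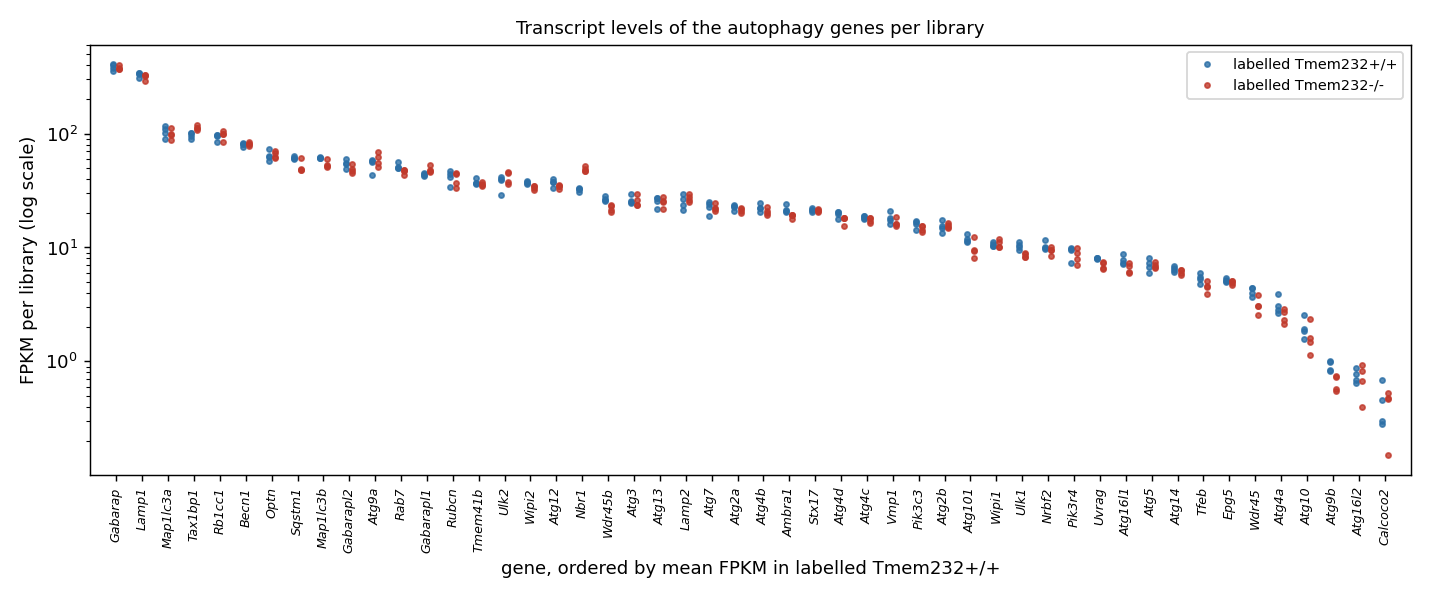
FPKM of the 50 members in each of the 8 libraries (y axis, log scale), ordered by the mean of the wild-type-labelled libraries (blue) with the knockout-labelled ones in red. Levels run from 386 FPKM for Gabarap to 0.43 for Calcoco2, and for most genes the 2 colours fall on each other.

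Beyond the members, 77 further genes of the pathway were followed in lists, and 76 could be tested. By edgeR, 3 of the 76 were higher (3.95%, against 10.3% of the tested genes) and none was lower, while 1 to 3 were called lower under some alternatives, DESeq2 giving 1. At an unadjusted p under 0.05, 12 were lower (15.8%, against 10.5%) and 5 higher (6.58%, against 14.6%). All 3 were in the list of 17 mitophagy and ER-phagy receptors. Atl3, an endoplasmic reticulum GTPase that is also a receptor for that organelle, measured 95.5, 94.9, 88.7 and 97.5 CPM in the knockout-labelled libraries and 53.6, 56.8, 53.8 and 59.5 CPM in the wild-type-labelled ones. The genotypes lay far apart (log2 fold change 0.75, SE 0.06, edgeR adjusted p = 2.73e-05).

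Retreg1, which encodes the ER-phagy receptor FAM134B, measured 18.3, 14.3, 13.4 and 18.2 CPM in the knockout-labelled libraries and 10.6, 9.75, 9.5 and 8.78 CPM in the wild-type-labelled ones, also without overlap (0.73, SE 0.13, edgeR adjusted p = 0.00207). Ccpg1, another ER-phagy receptor, measured 143, 139, 144 and 124 CPM against 111, 115, 108 and 117 CPM (0.29, SE 0.07, edgeR adjusted p = 0.0166). It shares exon bases with Gm44503 and Pigb and its counts were not whole numbers, so its value is uncertain, and its call was lost without any one of knockout-labelled replicates 1, 2 and 3 (adjusted p = 0.0543, 0.0511 and 0.0587). The spermatid marker sums moved with these genes too, and their part was not tested.

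Across the members and these lists, 126 genes were tested, 5 were higher, and all 5 were receptors: 5 of the 22 cargo, mitophagy and ER-phagy receptor genes (22.7%, against 10.3% of the tested genes) and none of the other 104. This grouping was made after the values were seen and was not tested. It did not hold in every setting: Gabarapl1, an ATG8 gene, was called higher with DESeq2 (adjusted p = 0.0339). DESeq2 also called 4 pathway genes higher, against 3 by edgeR, and the further gene is not named here. Armc3 was called higher by edgeR without knockout-labelled replicate 4 (adjusted p = 0.0337). Of the 17 in the mitophagy and ER-phagy list, 12 had a log2 fold change below 0, as did 9600 of the 15787 tested genes, and the list's median was -0.08 against -0.05 over the tested genes. Pink1, the kinase that marks damaged mitochondria, and Fundc1, a mitophagy receptor, chosen after their values were seen, stood at -0.23 and -0.35 without overlap between the genotypes (edgeR adjusted p = 0.0567 and 0.0651).

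The remaining lists held no called gene. The 18 genes of mTORC1 and AMPK control, which sense nutrients upstream of ULK1, had a median log2 fold change of -0.09. The 13 genes of fusion and tethering, HOPS subunits and SNAREs among them, were all below 0, with a median of -0.14 and a smallest adjusted p of 0.157 by edgeR. The median over the tested genes was also below 0, at -0.05, and not all 13 genes lay below it. The 20 lysosomal hydrolases and proton pump subunits had a median of -0.07 and the 7 tested MiT factors and regulators -0.09. Armc3, named in the study as a regulator of autophagy in the testis, had a log2 fold change of 0.21 (SE 0.09, edgeR adjusted p = 0.182). It passed in 1 of 18 alternative settings, without knockout-labelled replicate 4 (0.29, adjusted p = 0.0337), and the adjusted p reached 0.397 in the others.

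Libraries of 1 genotype also differed among themselves. Wild-type-labelled replicate 3 was the farthest from the others of its genotype: the chi-square per gene between it and them was 14.7 to 23.5, against 3.82 to 6.67 among the other 3. The knockout-labelled libraries were also spread, with 3.65 between replicates 2 and 3 and 8.33 to 13.8 for the other 5 pairs. Wild-type-labelled replicate 3 was the lowest of its genotype in 27 of the 50 members. A set of 9 members (Ulk2, Atg13, Pik3c3, Pik3r4, Rubcn, Atg2a, Atg2b, Atg9a and Lamp1) were below their genotype mean in that library and in knockout-labelled replicates 1 and 4 and above it in the other 5 libraries, a pattern shown by 7.27% of the tested genes. Atg2a, as an example, measured 88.9 and 93.2 CPM in knockout-labelled replicates 1 and 4 and 81.5 CPM in wild-type-labelled replicate 3, against 109 to 117 CPM in the others. The pattern was chosen after the values were seen and does not follow the genotype.

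Apart from members under 10 CPM, the within-genotype SD of log2 CPM was widest in 6 of these 9, Rubcn, Atg9a, Atg2a, Pik3r4, Ulk2 and Atg2b, at 0.19 to 0.22. It was 0.14 in Atg13, 0.12 in Pik3c3 and 0.08 in Lamp1, and narrowest of all members in Stx17, at 0.05. Calcoco2, at under 2 CPM, had the widest of all, 0.40. Without wild-type-labelled replicate 3, 2 members were higher and 0 lower, namely Nbr1 and Tax1bp1 (edgeR adjusted p = 5.72e-05 and 0.02), with Wdr45b at 0.0556.

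**Figure D5:**
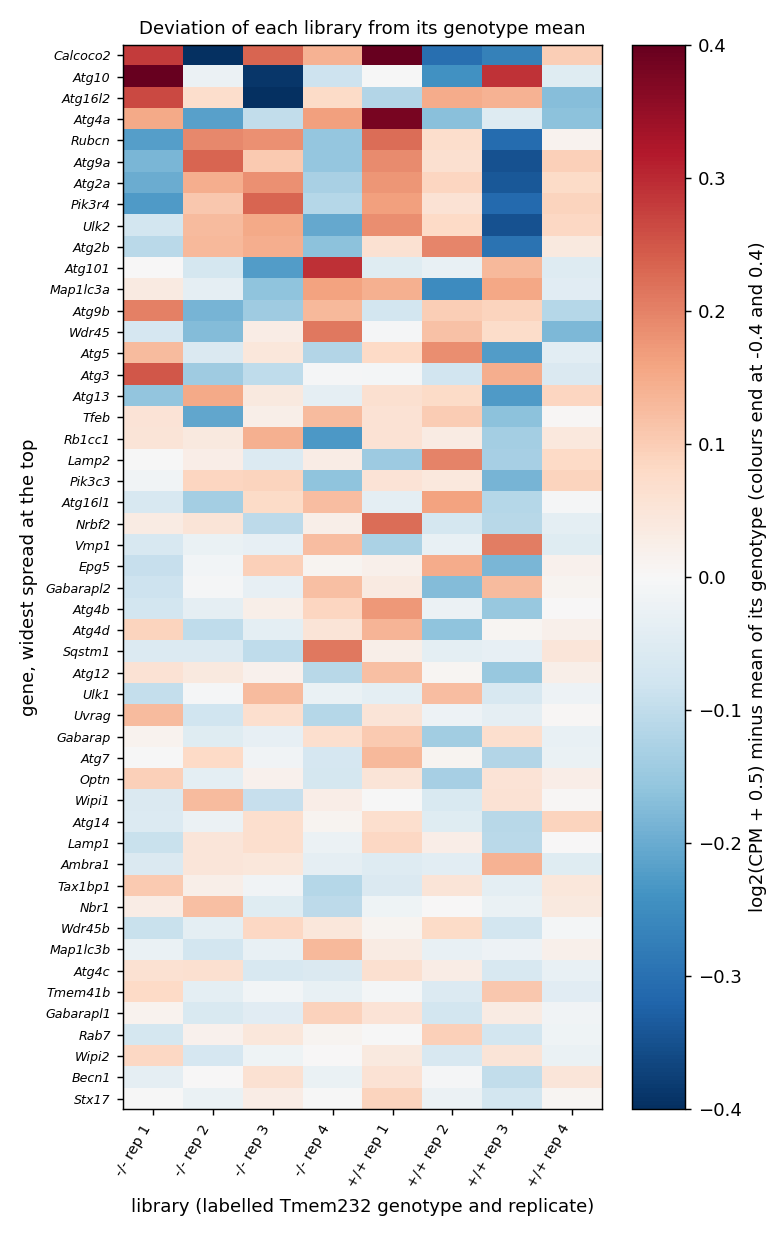
Log2(CPM + 0.5) of each member in each library minus the mean of its genotype, in colour (red above, blue below, ending at -0.4 and 0.4), with genes ordered from the widest within-genotype spread at the top. Rubcn, Atg9a, Atg2a, Pik3r4, Ulk2 and Atg2b are blue together in knockout-labelled replicates 1 and 4 and in wild-type-labelled replicate 3.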

How the data were processed

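Total RNA of 8 whole testes was made into libraries with a TruSeq kit and sequenced in pairs by the study. Per the labels and the submitters' processing notes, the authors mapped reads to GRCm38.p6 with HISAT and Bowtie2 and counted genes with StringTie and featureCounts. The deposited table gives, for each gene and library, estimated counts that the authors made in this way, of which 10.7% to 11.2% in a library were not whole numbers, and FPKM values that the authors computed. It also holds the authors' group means and DESeq2 fold changes with p-values, which were not used. Whether counting used strand was not stated.

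Counts were rounded and tested in edgeR 4.0.16 (R 4.3.3), with filterByExpr, TMM scaling and the quasi-likelihood test of the 2 labelled genotypes without covariates; p-values were adjusted by the Benjamini-Hochberg method. Single ratios were compared by an exact two-sided permutation test over 70 arrangements. FPKM was used for levels between genes. No 2 libraries of the same genotype agreed within sampling noise. Alternatives were DESeq2 1.42.0, limma-voom and limma 3.58.1 on log2(FPKM + 1) or log2(FPKM + 0.1), other scalings and filters, a replicate block, and leaving out each library. The test was run on simulated data first. Total counts were 15428421 to 16350871. The p-values weigh the genotype difference against the variation between libraries, each from 1 mouse.

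The members and lists were chosen with earlier results of these data known. All members could be named; values for every library were given for members that were called or did not overlap, and for Becn1, Pik3c3, Pik3r4, Atg14, Sqstm1, Map1lc3a and Map1lc3b whatever their result. Outside the members, Tmem232, Armc3 and called pathway genes were named, with Pink1 and Fundc1 added after their values were seen. Promoters are from RefSeq, GRCm38.p6, and overlaps from GENCODE M21.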

Additional observations from a re-analysis of the deposited data

Results flagged for a closer look

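In 6 of 100 groups of 4 libraries (50 members in 2 genotypes), 1 library stood farther from the nearest other than Dixon's 95% limit for 4 libraries allows, where chance gives about 5. The gap divided by the range was 0.869 for Rb1cc1, 0.917 for Atg13, 0.887 for Atg101 and 0.95 for Ambra1, each in wild-type-labelled replicate 3. It was 0.862 for Sqstm1 in knockout-labelled replicate 4 and 0.84 for Optn in wild-type-labelled replicate 2.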

How the results depend on the processing

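Nbr1 was called in all 18 alternatives (adjusted p from 7.99e-19 to 0.00179 over DESeq2, edgeR and limma). Tax1bp1 was lost in 4 and Wdr45b in 12. Of the 47 members not called, Ulk1, Gabarapl1 (DESeq2, adjusted p = 0.0339) and Sqstm1 were called in some alternative and 44 in none. No called member changed sign, while 21 uncalled members did. Without wild-type-labelled replicate 3, the log2 fold changes of Vmp1 and Tmem41b turned to 0.008 and 0.043. Without wild-type-labelled replicate 1, those of Atg7, Atg12 and Lamp1 turned to 0.051, 0.004 and 0.028. Gabarap and Stx17 then stood at 0.079 and 0.093.

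The higher members numbered 3 with DESeq2, 1 with the replicate block and 1 with a 1.5-fold minimum, and 1 to 2 when each library was left out. The lower members numbered 0 with DESeq2 size factors, no filter, at least 10 counts, the replicate block and the 1.5-fold minimum, 2 with library size alone and with FPKM at either pseudocount, and 0 to 1 when each library was left out. Lower pathway genes numbered 1 with DESeq2, 2 with library size alone, 3 with FPKM at either pseudocount and 0 to 3 when each library was left out, against 0. Higher pathway genes numbered 4 with DESeq2, 2 with the replicate block and 2 to 4 when each library was left out, against 3. The cause was not tested.

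The members' median log2 fold change was -0.0216 with DESeq2, -0.0223 with its size factors, -0.0789 with library size alone, -0.00302 with no filter, -0.0339 with at least 10 counts, -0.0749 and -0.0869 with FPKM at pseudocounts 1 and 0.1, and -0.0804 to 0.0261 when each library was left out. It turned positive without wild-type-labelled replicate 1. The median over all genes moved as well, between -0.0873 and 3.25e-05.

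With the replicate block, Tax1bp1 had an adjusted p of 0.115, Wdr45b of 0.188 and Ccpg1 of 0.102, 3 of the 5 higher receptor genes stayed called, and 1317 genes were higher and 28 lower in the table. The correlations of same-numbered libraries' deviations were -0.108, 0.122, -0.413 and -0.132. Such values cannot decide whether the numbers pair the mice, which the labels do not state. Depth limits Calcoco2, Atg16l2 and Atg10.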
